A study of Mus musculus with 2 samples.

Results

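The genes described here encode 10 immunoglobulin-like receptors of the macrophage surface, out of 22180 genes named on the arrays. Sirpa, Pirb, Cd200r1, Cd300a and Cd300lf encode the 5 inhibitory receptors, and Sirpb1a, Sirpb1c, Cd200r4, Trem1 and Trem2 the 5 activating ones. They were selected on family and on the signal differences between the same 2 arrays that are compared below, so their differences are given as a description and none was tested.

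The 2 samples were cultures of RAW264.7, an established mouse macrophage cell line, 1 with the genotype wildtype and 1 with the genotype HuR-deficient. HuR, the product of Elavl1, is an RNA-binding protein that stabilises many mRNAs carrying AU-rich stretches. Both cultures had been transfected with poly(I:C) of high molecular weight, a mimic of viral double-stranded RNA, by means of lipofectamine 2000 for 8 hours at a labelled 1 mg/ml, a dose that could not be checked. The labels do not say how HuR was disrupted or whether the deficient line is a single clone. Each culture was measured on 1 Affymetrix array, with no replicate and no untreated culture analysed here, so each value below is a single measurement and no p-value was computed.

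Paired receptors are families in which an inhibitory and an activating member have similar outer parts and opposite signals. The inhibitory receptors carry tyrosine motifs in long cytoplasmic tails that recruit phosphatases such as SHP-1, or, in the case of CD200R1, Dok adaptors. The activating receptors have short tails and signal through a partner protein in the membrane, mostly DAP12, which recruits the kinase Syk. In macrophages these receptors set thresholds for phagocytosis and cytokine release: SIRPA reads CD47 on healthy cells, CD200R1 reads CD200, PIR-B reads MHC class I molecules, and TREM1 and TREM2 respond to inflammatory and lipid ligands.

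Signals are log2 values made by the authors with RMA, and each difference is the log2 signal of the array labelled HuR-deficient minus that of the wildtype array. A floor of 4.38, the median of all values of named genes, was used as a filter: a gene passed if the higher of its 2 signals reached it. The floor is no detection limit, and since each probe set responds in its own way, a higher signal of 1 gene than of another is not read as a higher level. Of the 22180 genes, 11905 passed, with a median difference of 0 and a robust SD of the difference of 0.327. This SD describes spread over genes, not over replicates. The targeted gene Elavl1 gave 7.68 in wildtype cells and 7.75 in the HuR-deficient-labelled cells, so its signal did not separate the arrays. Where its probes lie relative to the disrupted part is not stated, so it does not check the label, and every direction below is named by the label. Of the 12 macrophage markers measured, 10 passed the filter, among them Lyz2 (12.34 and 12.20) and Cd68 (11.55 and 11.34), while Mrc1 and Mertk were under the floor on both arrays. One marker, Adgre1, which encodes a surface receptor typical of mouse macrophages, was higher in the HuR-deficient-labelled cells (4.94 in wildtype against 6.51), and the integrin gene Itgam had the lowest difference of the list, -0.33.

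Each of the 10 receptor genes had 1 probe set of its own. The genes that stood lower by 2-fold or more in the HuR-deficient-labelled cells were Cd200r1, Sirpb1c, Sirpb1a and Pirb, 2 inhibitory and 2 activating receptors, and no member stood higher by 2-fold. The 2 activating ones, Sirpb1c and Sirpb1a, are close copies whose values may not be separate measurements, as described below. Of the 10, 8 passed the filter (4 inhibitory, 4 activating), Cd200r1 and Sirpb1c only through the wildtype array and Trem1 only through the other. Among all genes that passed, 1.11% were lower by 2-fold and 0.882% higher, and with no filter 1.05% were lower. Since the members were selected on this contrast, those shares are background to read beside the count and support nothing. The other 4 members that passed, Sirpa, Cd300a, Trem1 and Trem2, differed by less than 2-fold, and Cd300lf and Cd200r4 were under the floor on both arrays.

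**Figure D1:**
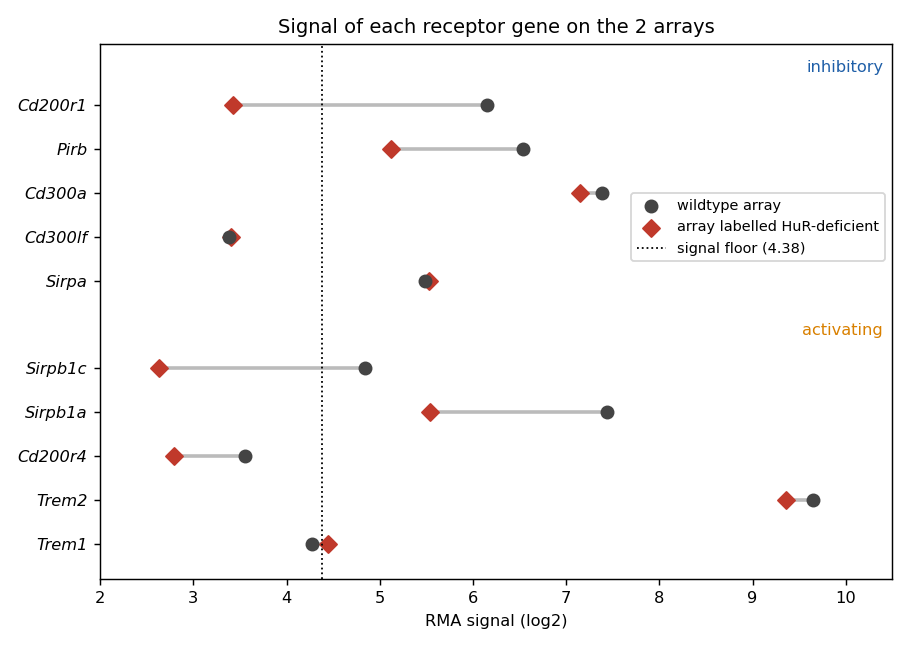
RMA signal (log2, horizontal axis) of each receptor gene, circles for the wildtype array and diamonds for the array labelled HuR-deficient, 1 array each with no error bars, inhibitory genes above and activating genes below. The pairs lie farthest apart for Cd200r1 (6.15 against 3.42), Sirpb1c (4.84 against 2.63), Sirpb1a (7.44 against 5.54) and Pirb (6.54 against 5.12), and the dotted line marks the floor of 4.38.

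By signalling class, the 5 inhibitory genes had a median difference of -0.24, with 3 below 0 and 2 above. The 5 activating genes had a median of -0.77, with 4 below 0 and 1 above. Each class thus held members that stood far apart between the arrays and members that did not, from -2.73 to 0.04 for the inhibitory genes and from -2.21 to 0.17 for the activating ones. As background to the counts by sign, 5783 of the 11905 genes that passed were below 0 and 5871 above. With no filter, 10273 of 22180 genes were below 0. With the members limited to those at or above the floor on both arrays, the activating median was -1.10, and with every value under the floor set to it, -0.30. The difference between the classes was not tested, and the activating class holds Sirpb1a and Sirpb1c, whose values may not be separate measurements.

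Among the inhibitory receptors, Cd200r1 (Entrez Gene 57781, probe set 17325861) had the lowest difference. Its product binds the surface protein CD200 and restrains cytokine release through Dok2 and a Ras-inactivating protein. The signal was 6.15 in wildtype cells and 3.42 in the HuR-deficient-labelled cells, a difference of -2.73 or 6.64-fold lower. The lower signal lay under the floor, and set against the floor in its place the difference was -1.77, still past 2-fold.

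Pirb (Entrez Gene 18733, probe set 17485589) encodes paired immunoglobulin-like receptor B, which recognises MHC class I molecules and recruits SHP-1. Its signal was 6.54 in wildtype cells and 5.12 in the HuR-deficient-labelled cells, both above the floor. The difference of -1.42 made it 2.68-fold lower. The activating counterparts of Pirb, the Pira genes, are near-identical to it in their outer parts. A probe set shared by 5 symbols, among them Pira1, Pira2 and Lilra6, gave 2.45 and 2.81, both under the floor. How far the Pirb probes read Pira transcripts was not tested.

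To show the regulatory sequence beside this value, the 250 bases before the listed start of Pirb are printed here 5′ to 3′ from RefSeq (GRCm38.p6, chr7:3720383-3720632, minus strand), with capitals for each GAGGAA, the core bound by the macrophage factor PU.1, on either strand (TTCCTC where it lies on the opposite one).
Pirb: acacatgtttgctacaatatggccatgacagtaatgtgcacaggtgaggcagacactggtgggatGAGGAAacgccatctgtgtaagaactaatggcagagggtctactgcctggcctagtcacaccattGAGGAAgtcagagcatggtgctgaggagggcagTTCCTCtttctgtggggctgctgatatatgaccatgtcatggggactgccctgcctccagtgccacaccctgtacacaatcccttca
Its 3 matches begin 185, 120 and 87 bases before the start. A RefSeq promoter window of 300 bases (250 before the start and 50 after) was listed for 8 of the 10 members, and 5 of these (62.5%) held GAGGAA on either strand, against 28.3% of all 32851 windows. The 5 were Pirb, Cd300a, Cd300lf, Trem1 and Trem2, and those of Sirpb1a, Sirpb1c and Cd200r4 did not hold these letters. The starts listed for Sirpb1a and Sirpb1c lie inside their RefSeq gene spans, so part of the bases before those starts belongs to the genes. No window was listed for Sirpa and Cd200r1. Of the members lower by 2-fold, Pirb held the letters, the close copies Sirpb1a and Sirpb1c did not, and Cd200r1 could not be examined. A match of letters is a description, not a binding site. The PU.1 gene itself, Spi1, had signals of 8.32 and 8.65.

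The other inhibitory members differed little. Sirpa (Entrez Gene 19261, probe set 17376167), whose product reads CD47 and restrains phagocytosis, gave 5.49 in wildtype cells and 5.53 in the HuR-deficient-labelled cells, a difference of 0.04. Cd300a (Entrez Gene 217303, probe set 17258107), a receptor for the phospholipids that dying cells expose, gave 7.39 and 7.15, a difference of -0.24 that is within the robust SD of 0.299 found over the 500 genes nearest in mean signal. Cd300lf (Entrez Gene 246746, probe set 17271776), a lipid-binding receptor with inhibitory motifs, gave 3.38 and 3.41, both under the floor. Both probe sets that Cd300lf shares with Cd300ld3, Cd300ld4 and Cd300ld5 were above the floor (5.27 in wildtype cells against 5.59, and 5.50 against 5.82), but which of the 4 genes they read was not tested.

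Among the activating receptors, the Sirpb1 genes stood lowest. They encode short-tailed relatives of SIRPA that signal through DAP12. Sirpb1a (Entrez Gene 320832, probe set 17404200) gave 7.44 in wildtype cells and 5.54 in the HuR-deficient-labelled cells, both above the floor, a difference of -1.91 or 3.75-fold lower. Sirpb1c (Entrez Gene 100038947, probe set 17404217) gave 4.84 and 2.63, a difference of -2.21 or 4.64-fold lower. Its lower signal lay under the floor, and set against the floor the difference was -0.46, no longer 2-fold.

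The Sirpb1 genes are close copies, which bears on how their probe sets can be read. The 155 bases just before the RefSeq gene spans of Sirpb1a (GRCm38.p6, chr3:15426523-15426677) and Sirpb1c (chr3:15848531-15848685), both on the minus strand, are printed 5′ to 3′ with capitals where the pair differs.
Sirpb1a: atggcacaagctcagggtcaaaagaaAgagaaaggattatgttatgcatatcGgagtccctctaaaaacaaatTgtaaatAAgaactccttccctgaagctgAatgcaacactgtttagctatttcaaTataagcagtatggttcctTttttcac
Sirpb1c: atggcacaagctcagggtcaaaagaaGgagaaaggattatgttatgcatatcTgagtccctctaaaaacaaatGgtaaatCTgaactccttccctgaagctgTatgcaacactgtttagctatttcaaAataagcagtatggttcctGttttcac
They matched at 147 of 155 bases (94.8%), and the same stretch of Sirpb1b matched Sirpb1a at 95.5% and Sirpb1c at 97.4%. The copies are thus alike even outside the transcribed part as RefSeq gives it. Probes of 1 copy may read the transcripts of another, which was not tested, so the Sirpb1 values cannot be counted as separate measurements of separate genes.

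In gene order (RefSeq, GRCm38.p6, measured genes only), Sirpb1a and Sirpb1c lie next to each other (Sirpb1b, between them, had a shared probe set) and between the protein-coding genes Gm9733 and Gm5150, and all 4 were lower by 2-fold. Gm9733 gave 5.65 in wildtype cells and 4.23 in the HuR-deficient-labelled cells (difference -1.42, the lower signal under the floor), and Gm5150 gave 7.52 and 5.83 (difference -1.69). The probe set shared by Sirpb1b and Sirpb1a gave 7.89 and 5.32. Whether the probes of Gm9733 and Gm5150 read Sirpb1 transcripts, or the reverse, was not tested. The 4 differences may thus not be 4 separate measurements. The next measured genes outward did not share the difference: Ythdf3, which encodes a reader of methylated RNA, gave 4.46 and 4.57, and A930001A20Rik gave 3.69 and 3.46, under the floor.

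**Figure D2:**
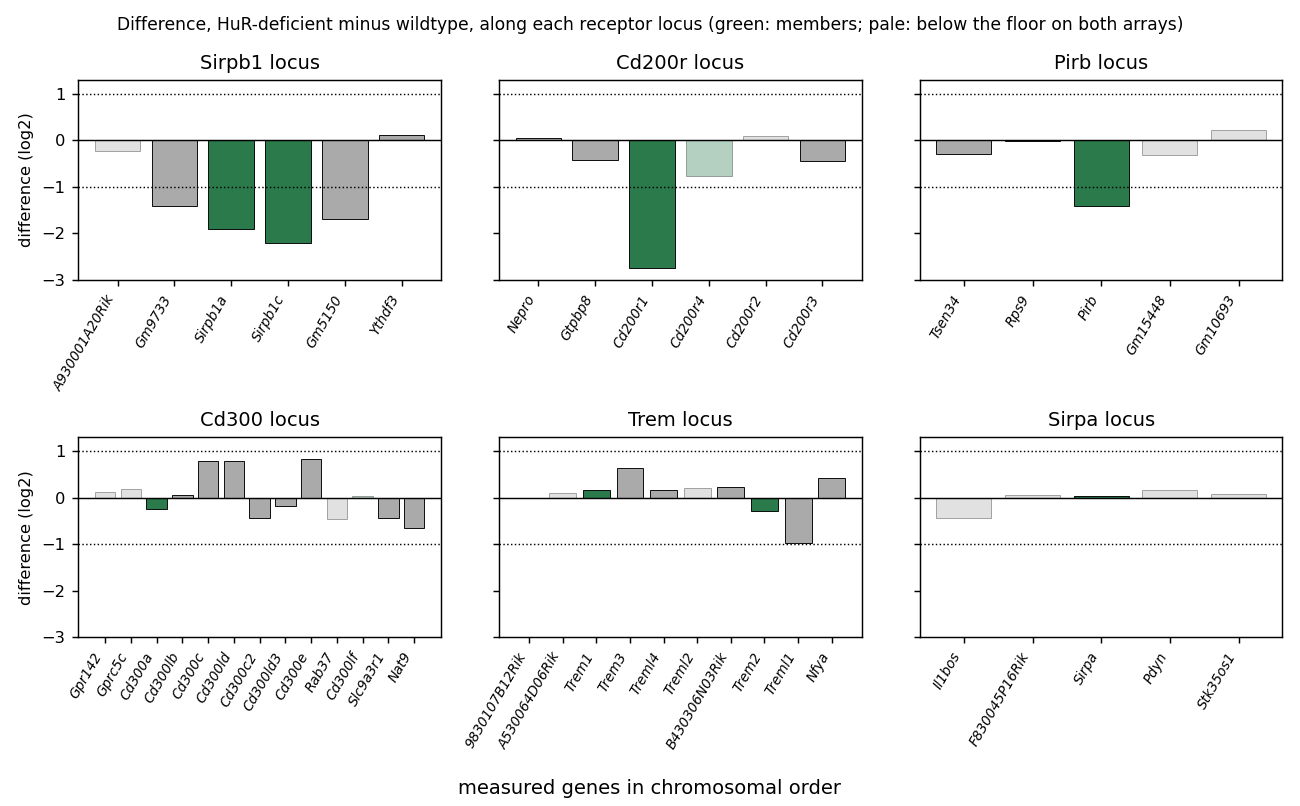
Difference in log2 signal (vertical axis, HuR-deficient minus wildtype) of the measured genes in chromosomal order at the 6 receptor loci; bars are single differences between 2 arrays, green for members, grey for other genes and pale where both signals were under the floor, with dotted lines at 2-fold. The 4 neighbouring bars at the Sirpb1 locus run from -1.42 to -2.21, while at the Cd200r and Pirb loci 1 bar each passes 2-fold.

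At the Cd200r locus the pattern was narrower. Cd200r4 (Entrez Gene 239849, probe set 17325874), an activating relative of Cd200r1 that pairs with DAP12, gave 3.56 in wildtype cells and 2.79 in the HuR-deficient-labelled cells, a difference of -0.77 with both signals under the floor and neither shown to lie above background. Cd200r2 gave 3.77 and 3.87 and Cd200r3 gave 4.50 and 4.06. On the other side, Nepro (6.12 and 6.18) and Gtpbp8 (6.93 and 6.51) differed by 0.06 and -0.42. Around Pirb, the ribosomal protein gene Rps9 (12.06 and 12.05) and Tsen34 (5.45 and 5.14) stayed within 2-fold, as did the weak signals of Gm15448 (3.05 and 2.74) and Gm10693 (4.08 and 4.31). The measured neighbours of Sirpa, which are Il1bos, F830045P16Rik, Pdyn and Stk35os1, were under the floor on both arrays.

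The TREM receptors sit together on another chromosome, and the members Trem1 and Trem2 stayed within 2-fold. Trem2 (Entrez Gene 83433, probe set 17338416), a DAP12-coupled receptor for lipids and apolipoproteins that promotes phagocytosis, gave 9.65 in wildtype cells and 9.36 in the HuR-deficient-labelled cells, a difference of -0.30 beside a robust SD of 0.234 over genes of like signal. Trem1 (Entrez Gene 58217, probe set 17338364), which amplifies inflammatory signalling through DAP12, gave 4.28 and 4.45, a difference of 0.17 around the floor. Between them lie Trem3 (4.60 and 5.24), Treml4 (5.15 and 5.31), Treml2 (3.37 and 3.56, under the floor) and B430306N03Rik (4.70 and 4.93). Next to Trem2, Treml1, which encodes a receptor with an inhibitory motif best known from platelets, gave 5.93 and 4.95, a difference of -0.98 just short of 2-fold. Nfya, beyond it, differed by 0.43, and on the Trem1 side 9830107B12Rik and A530064D06Rik were under the floor.

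At the Cd300 locus, the activating genes between Cd300a and Cd300lf had differences of both signs. Cd300e gave 5.22 and 6.05, Cd300c 5.32 and 6.12, and Cd300ld 6.74 and 7.53, all higher in the HuR-deficient-labelled cells by about the same amount (0.82, 0.79 and 0.79) and all within 2-fold. Cd300c2 gave 6.22 and 5.79 and Cd300ld3 gave 6.70 and 6.51, both slightly lower, and Cd300lb gave 5.77 and 5.83. No gene of this family passed 2-fold. The flanking genes Slc9a3r1 and Nat9 differed by -0.45 and -0.65, and Gpr142 and Gprc5c were under the floor.

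**Figure D3:**
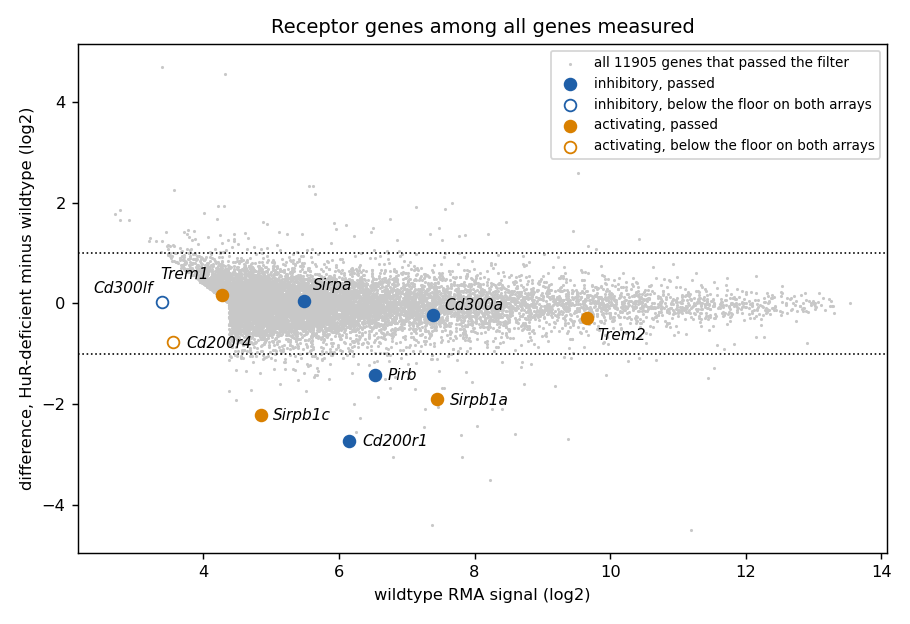
Difference (log2, HuR-deficient minus wildtype, vertical axis) against wildtype signal (log2, horizontal axis) for the 11905 genes that passed the filter in grey, with the receptor genes in blue (inhibitory) and orange (activating); open symbols were under the floor on both arrays and dotted lines mark 2-fold. Cd200r1, Sirpb1c, Sirpb1a and Pirb lie below the lower line, and the other members lie between the lines.

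Relatives outside the 10 members were counted from lists written with earlier results of these data known. Of 15 listed inhibitory relatives, 14 were measured and 9 passed the filter, 1 of them lower by 2-fold and 0 higher, with a median difference of -0.39 over the 14 and 10 of these below 0. The gene past 2-fold was Lilrb4a, which encodes an inhibitory leukocyte receptor of the same kind as PIR-B, with 11.53 in wildtype cells and 10.24 in the HuR-deficient-labelled cells (difference -1.28). Pilra, an inhibitory paired receptor gene, was the highest of those that passed (4.60 and 5.31, difference 0.72). Of 34 listed activating relatives, 18 were measured and 12 passed, 0 of them past 2-fold in either direction. Their median was 0.20 over the 18, with 13 above 0, and they ran from Cd200r3 (-0.44) to Siglec1 (0.89). Siglec1 encodes a sialic acid-binding receptor of macrophages, and its place among activating receptors is that of the list only. Gm9733 and Gm5150, the neighbours of the Sirpb1 genes that were lower by 2-fold (differences -1.42 and -1.69), were not on the list and not counted. The 16 relatives without a probe set of their own included Sirpb1b and the listed Pira genes. Probe sets with several symbols, not counted here, gave -2.57 for Sirpb1b with Sirpb1a and 0.32 to 0.36 at the Cd300 and Pir loci. The 1.11% and 0.882% given above are the background for the 2-fold counts, and the median over all genes was 0. For the counts by sign, 10273 of all 22180 genes were below 0 with no filter.

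The adaptors through which the activating receptors signal gave high signals on both arrays. Tyrobp, which encodes DAP12, gave 12.43 in wildtype cells and 12.37 in the HuR-deficient-labelled cells. Fcer1g, the gamma chain that partners the PIR-A receptors, gave 11.66 and 11.59. Hcst, which encodes the related adaptor DAP10, gave 9.95 and 9.27, a difference of -0.67. None of the 3 passed 2-fold.

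Downstream of the inhibitory receptors, 8 of the 9 measured genes of a list of phosphatases, Dok adaptors and the regulators Rasa1, Csk and Pag1 passed the filter, with 0 past 2-fold and a median of 0.21 over the 9. The lowest was Rasa1, the Ras-inactivating protein on which CD200R1 signalling converges (7.96 and 7.57, difference -0.39), and the highest Dok3 (5.49 and 5.98, difference 0.49). Of 15 measured kinase and effector genes of the activating receptors, 12 passed, with 0 past 2-fold and a median of 0.09. Lat2, an adaptor of myeloid and B cells, was the lowest (8.39 and 7.71, difference -0.67), and Src the highest (4.95 and 5.43, difference 0.48).

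The ligands of these receptors also stayed within 2-fold. Cd47, the ligand of SIRPA, gave 10.20 on each array. Cd200, the ligand of CD200R1, gave 2.65 and 2.71, under the floor on both. Of 15 measured ligand genes, 8 passed the filter, running from Pglyrp1, a peptidoglycan-binding protein described as a TREM1 ligand (5.06 and 4.73, difference -0.34), to Rtn4, a PIR-B ligand (6.42 and 6.62, difference 0.20), with a median of -0.02 over the 15. Of the genes of receptor shedding, 6 were measured and 6 passed, with 0 past 2-fold and a median of 0.03, from Aph1a (-0.39) to Adam17 (0.09).

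Of 11 measured transcription factor genes of the macrophage lineage, all of which passed, 1 was lower by 2-fold. This was Tfec, a helix-loop-helix factor of the MITF family, with 6.21 in wildtype cells and 4.21 in the HuR-deficient-labelled cells (4.01-fold lower), the latter under the floor. Irf8 was the highest, with 9.03 and 10.02 (difference 0.98) for its brighter probe set, whereas its other probe set differed by 0.19. The median of the list was -0.08. In all, 69 genes of the 8 lists of relatives and pathway genes passed the filter, and Lilrb4a and Tfec were the 2 that differed by 2-fold.

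**Figure D4:**
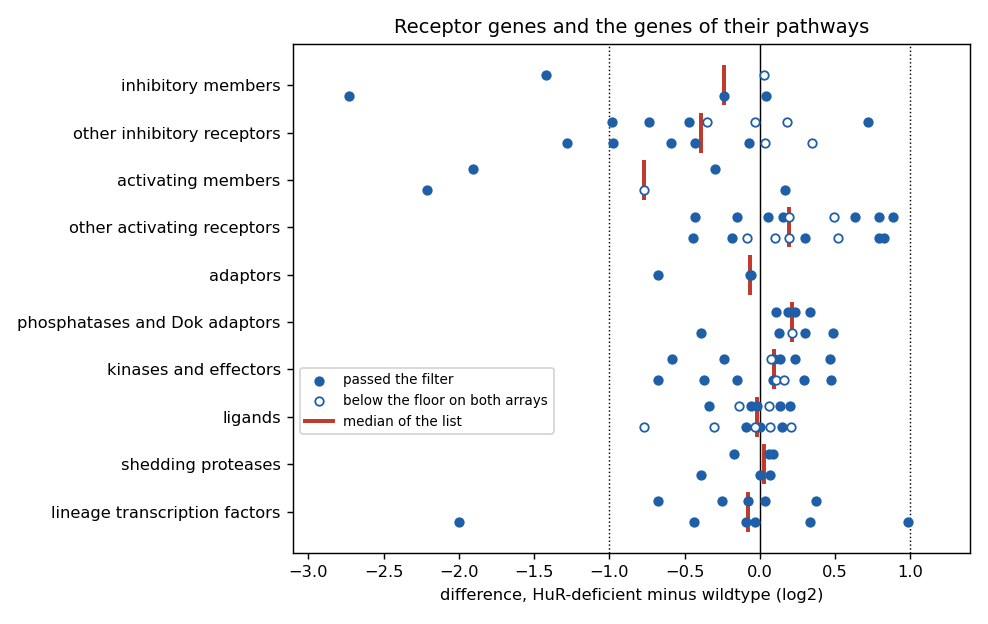
Difference in log2 signal (horizontal axis, HuR-deficient minus wildtype) of each measured gene of the receptor, adaptor, effector, ligand, shedding and transcription factor lists (rows), filled where the gene passed the filter and open where both signals were under the floor, with the list median as a bar and dotted lines at 2-fold; points are offset vertically only for legibility. Points beyond the lower line are Cd200r1 and Pirb, Lilrb4a, Sirpb1c and Sirpb1a, and Tfec, and none lies beyond the upper line.

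Markers of other cell types were set beside these values. Of the T and NK cell markers 3 of 9 passed the filter, with signals up to 4.36 in wildtype cells and 4.62 in the HuR-deficient-labelled ones, from Cd3e (0.13) to Cd3d (0.52) in difference. For B cells, 2 of 5 passed, Pax5 (difference 0.21) and Ighm (0.52), while Ms4a1 and Cd79a were under the floor. Of the 7 Ighm probe sets this was the brightest, and the next brightest, also above the floor on both arrays, differed by -0.01. Dendritic cell markers passed in 2 of 5 cases, Ccr7 (-0.11) and Xcr1 (0.13), and fibroblast, epithelial and endothelial markers in 3 of 7, from Krt18 (-0.61) to Col1a1 (0.16). Second probe sets of Krt18 (3.38 and 3.76) and Col1a2 (2.98 and 4.26), under the floor on both arrays, went the other way from the brighter ones. The brighter Col1a2 probe set gave 4.37 and 3.86, also under the floor. Averaging probe sets moved the median of these 7 from -0.49 to -0.11. Among 8 neutrophil and mast cell markers, only S100a8 passed, lower by 2-fold (6.31 and 4.04, the latter under the floor), while Ly6g, Elane, Mpo and S100a9 were under the floor on both arrays. Osteoclast genes, which RAW264.7 cells can express, passed in 5 of 7 cases with a median of -0.62 over the 7. They ran from Atp6v0d2, a subunit of the proton pump (7.37 and 2.97, difference -4.40, the latter signal under the floor), to Ocstamp, a cell fusion gene (6.72 and 7.61, difference 0.88), with 5 of the 7 below 0. The part of these differences in the receptor values was not tested.

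For each member past 2-fold, the genes nearest to it in wildtype signal and difference, by Euclidean distance in log2 units over the 2 arrays, were listed. Nearest to Cd200r1 were Ms4a7 (distance 0.20), S100a8 (0.49) and Rhox5 (0.72). Nearest to Pirb were Cd24a (0.17), Paip1 (0.22) and Klra2 (0.25). Sirpb1a lay nearest to Platr27 (0.07), Il1rn (0.14) and its neighbour Gm5150 (0.23), and Sirpb1c to Olfr503 (0.47), Prl2c1 (0.50) and Gm10237 (0.66). With 2 arrays, such likeness says only that 2 pairs of signals are close, not that the genes have like levels.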

How the data were processed

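RNA from 2 cultures was extracted with Trizol and labelled with biotin, per the labels' protocols. The authors deposited log2 signals per probe set, produced by RMA (per the submitters' processing notes, which give no version). RMA quantile-normalises probe intensities before it summarises them, so the probe set medians (4.08 wildtype, 4.10 HuR-deficient) are close but not equal. The log2 scale was read from the values (0.434 to 13.77). No scanner files or detection calls were used.

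Of 41345 probe sets, 23521 had 1 gene symbol in the platform table, 1814 several and 16010 none; 23328 of the first kind matched RefSeq by Entrez ID. Where a gene had more than 1 probe set (1082 genes), the brighter on average stood for it. Members and lists were chosen with earlier results of these data known. Named were all members, the adaptors, Cd47, Cd200, list genes past 2-fold, the extremes of each list, the 3 nearest genes and the 2 flanking genes at each side of a locus. Genes between members, further macrophage, neutrophil and B cell markers, Spi1, Col1a2 and the second probe sets of Irf8, Krt18, Col1a2 and Ighm were named after their values were seen. The counting, spread and loess steps were tested on simulated data. Alternatives were centring, renewed quantile normalisation, loess (span 0.3), averaged probe sets, other filters and thresholds. With 1 array per group, the number of arrays limits the precision. The software was pandas 2.3.3, numpy 2.4.6 and statsmodels 0.14.6 under Python 3.11.15.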

Additional observations from a re-analysis of the deposited data

Results flagged for a closer look

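Probe sets with several gene symbols were outside the rule that chose the receptor genes, and 2 of the 5 that carry a receptor name differed by 2-fold between the arrays. The probe set shared by Sirpb1b and Sirpb1a had a difference of -2.57 (5.95-fold lower on the array labelled HuR-deficient), from 7.89 to 5.32. The probe set shared by Lilr4b and Lilrb4a had a difference of -1.54 (2.92-fold lower), from 9.45 to 7.91. The other 3, at the Cd300 and Pir loci, differed by 0.32 to 0.36. Which of the named transcripts gives these signals was not tested.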

How the results depend on the processing

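No paired analysis was possible because each group has 1 array. Renewed quantile normalisation and loess moved the members' differences by less than the robust SD of genes of like signal. For Cd200r1 (-2.73), quantile normalisation gave -2.73 and loess -2.75, and for Sirpb1c (-2.21) they gave -2.21 and -2.24. Centring and averaging probe sets could not move a member, since the median difference is 0 and each member has 1 probe set. The count of 4 members lower by 2-fold was 3 at a 3-fold threshold and with the floor at the 75th percentile (5.61). With both arrays required to be at or above the floor, it was 2 (Pirb and Sirpb1a), the median of the activating members was -1.10 and the count of list genes lower by 2-fold went from 2 to 1 (Lilrb4a); fewer genes are counted there by construction. With values under the floor set to it, an alternative chosen after the values were seen, 3 members were lower by 2-fold and the activating median was -0.30, since Sirpb1c and Cd200r4 then differ by less (-0.46 and 0). With both arrays at or above the floor, the median of the fibroblast, epithelial and endothelial markers changed sign (-0.49 to 0.16) and that of the B cell markers went from 0 to 0.37. Medians near 0 also changed sign, for the ligands with renewed quantile normalisation (-0.021 to 0.014) and for the T and NK cell markers with loess (0.0088 to -0.0007). Signals under the floor of 4.38 limit the size of the Cd200r1, Sirpb1c, Gm9733, Tfec, S100a8 and Atp6v0d2 differences.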
